A study of Mus musculus with 12 samples.

Results

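Cholesterol synthesis genes were followed in amygdala mRNA of female C57/BL6 mice, animals of 1 inbred line. The members are 8 of the 47729 genes with estimated counts, chosen by symbol for the enzymes they encode. They are Hmgcs1, Idi1, Fdps, Fdft1, Sqle, Lss, Cyp51 and Dhcr7, and earlier results of these data were known when they were chosen. Each of 12 mice gave 1 stranded mRNA library from both amygdalae, and no mouse was treated or carried a genetic change. The mice were of matched age and about 11 weeks old at the last of 3 behavior tests. The sample labels give a predicted anxiety state of less anxious (3 mice, numbers 3, 7 and 12), anxious (4 mice, numbers 1, 4, 8 and 11) or more anxious (4 mice, numbers 2, 6, 9 and 10), and mouse 5 has no state. The study cut these groups from the second principal component of the same expression data, so a difference in expression between them is not independent of how they were made. The behavior measures were taken independently of the RNA.

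Cholesterol synthesis starts from acetyl-CoA, passes through mevalonate and the isoprenoids farnesyl diphosphate and squalene, and ends with the trimming of lanosterol to cholesterol. Little cholesterol crosses the blood-brain barrier, so the brain makes its own, and oligodendrocytes, astrocytes and neurons all hold the pathway. When sterol in the endoplasmic reticulum falls, the factor SREBP2 is released to the nucleus and raises transcription of most of these enzymes and of Insig1, which holds SREBP2 back.

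All 8 members are protein-coding genes in the GENCODE M21 annotation (build GRCm38). Hmgcs1 lies on chromosome 13 from 119690379 to 119708260, and Idi1 on the same chromosome from 8885501 to 8892451. Fdps lies on chromosome 3 from 89093588 to 89101959, Fdft1 on chromosome 14 from 63145150 to 63179578, and Sqle on chromosome 15 from 59315077 to 59331192. Lss lies on chromosome 10 from 76531588 to 76557138, Cyp51 on chromosome 5 from 4081145 to 4104746, and Dhcr7 on chromosome 7 from 143823145 to 143848410. Promoter windows of 300 bases (250 before and 50 after a gene's start) were present for 5 of the 8 members in the RefSeq table (GRCm38.p6), all but Fdps, Fdft1 and Sqle. Spelled-out motifs were searched on both strands of these windows, the sterol regulatory element TCACNCCAC to which SREBP binds, the CCAAT box CCAAT, and the GC box GGGCGG.

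The sterol element was found in the window of 1 member, Hmgcs1, where it began 137 bases before the start, and 1.24% of all 32851 windows held it. These 5 members have 7 windows in the table, of which 5 held CCAAT and 6 held GGGCGG, against 37.4% and 35.7% of all windows. Lss and Dhcr7 are shown beside Hmgcs1 because their levels moved together most closely over the mice. Dhcr7 has 3 windows in the table, and the one with the most matches is printed. Capitals mark the motif matches on either strand, no match overlaps another, and a match in these letters is not evidence of binding. The windows are Hmgcs1 at chr13:119690101-119690400, Lss at chr10:76531355-76531654 and Dhcr7 at chr7:143829964-143830263, all on the plus strand.
Hmgcs1: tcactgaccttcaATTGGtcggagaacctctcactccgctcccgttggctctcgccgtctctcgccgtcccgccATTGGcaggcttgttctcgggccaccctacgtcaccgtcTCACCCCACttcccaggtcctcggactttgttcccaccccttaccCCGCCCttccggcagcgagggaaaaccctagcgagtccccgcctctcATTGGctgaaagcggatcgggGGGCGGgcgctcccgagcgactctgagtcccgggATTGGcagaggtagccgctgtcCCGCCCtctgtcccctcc
Lss: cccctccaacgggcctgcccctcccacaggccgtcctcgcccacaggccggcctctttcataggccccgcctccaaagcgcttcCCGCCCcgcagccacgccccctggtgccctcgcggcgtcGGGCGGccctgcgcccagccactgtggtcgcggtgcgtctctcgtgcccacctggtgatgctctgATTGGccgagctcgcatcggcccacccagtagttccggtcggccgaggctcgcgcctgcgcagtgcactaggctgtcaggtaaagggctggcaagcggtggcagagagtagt
Dhcr7: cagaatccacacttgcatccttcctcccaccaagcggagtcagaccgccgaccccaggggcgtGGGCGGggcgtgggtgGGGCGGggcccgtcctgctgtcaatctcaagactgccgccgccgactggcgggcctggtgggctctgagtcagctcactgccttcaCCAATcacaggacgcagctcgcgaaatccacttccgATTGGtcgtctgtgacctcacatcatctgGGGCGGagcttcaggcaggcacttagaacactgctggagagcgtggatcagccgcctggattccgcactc

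The total per mouse ran from 31745630 to 45142355 estimated counts in the 11 mice with a group, with a median of 36578626. Every member had reads in every mouse, from 691 for Dhcr7 in mouse 3 to 12063 for Hmgcs1 in mouse 10. Markers of the labelled tissue were present, with all 5 genes of amygdala nuclei (Rspo2, Prkcd, Crh, Sst and Tac2) at a mean over 1 CPM (reads scaled to the library's size) and summed levels of 216.9 to 502.7 CPM. Most of this sum was Sst (mean 323 CPM), which interneurons outside the amygdala also make, and the other 4 had means of 5.48 to 15.3 CPM. Markers of the neighboring striatum (Ppp1r1b, Rgs9, Adora2a, Drd1 and Drd2) summed to 84.8 to 418 CPM, and Adora2a ranged 33.6-fold over the mice. Their part in the members' levels was not tested. Mouse 3 stood apart in base composition: the median deviation of GC-rich genes (upper quartile) minus that of GC-poor genes (lower quartile) was -0.32 on the log2 scale, the lowest of the 11, while mouse 9 had the highest at 0.21. Mouse 3 also had the fewest genes with a read, 26378. In whole tissue, fewer cells of a type and less RNA per cell cannot be told apart.

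Hmgcs1, which makes HMG-CoA at the entry of the pathway, was the most abundant member per length, at 56.4 CPM per kilobase of annotated exon averaged over the 11 mice. On the same scale Fdft1 followed at 21.9, Cyp51 at 14.8, Fdps at 13.3, Sqle at 13.2, Idi1 at 11.7, Dhcr7 at 6.58 and Lss at 4.32. Fdps and Sqle lie closer together than the spread of either over mice. All annotated exons count in the length, so the scale depends on the annotation, which lists 13 transcripts for Dhcr7 and 8 for Lss. The spread over mice differed among the members: the coefficient of variation of CPM was 6.09% for Sqle and 7.77% for Fdft1, but 23.5% for Lss and 24.8% for Dhcr7. Among genes over 1 CPM, 3.18% varied less than Sqle and 82.9% varied less than Dhcr7, and the median over all of them was 14.3%, against 11.5% for the members.

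Hmgcs1 stood at 266, 244 and 243 CPM in the less anxious mice 3, 7 and 12. It stood at 253, 256, 234 and 258 CPM in the anxious mice 1, 4, 8 and 11, and at 250, 244, 266 and 336 CPM in the more anxious mice 2, 6, 9 and 10. Mouse 10 was above every other mouse, and the remaining values of the 3 groups overlapped. Idi1, which isomerizes the 5-carbon building block, showed the same single high mouse. Its CPM was 42.8, 44.4 and 41.6 in less anxious mice, 39.1, 34.6, 39.2 and 40.4 in anxious mice, and 38.6, 40.5, 34.9 and 54.8 in more anxious mice (in the same order of mice, which holds below). Of the 4 anxious mice, none reached the lowest less anxious value, while the more anxious mice lay on both sides of it. The share of all genes that separate anxious from less anxious mice was not computed. Idi1 had an unadjusted p of 0.446 in edgeR's test over the 3 groups. Fdps makes farnesyl diphosphate, the branch point to sterols, ubiquinone and prenylated proteins. Its CPM was 56.2, 61.8 and 56.2 in less anxious mice, 46.5, 52.6, 63.3 and 56.4 in anxious mice, and 46.8, 68.9, 57.6 and 48.9 in more anxious mice. The less anxious mice lay inside the range of the other groups.

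Fdft1, squalene synthase, commits farnesyl diphosphate to sterols. It was at 87.4, 95.02 and 80.1 CPM in less anxious mice, 87.6, 94.2, 103 and 84.3 CPM in anxious mice, and 94.1, 92.4, 103 and 97.9 CPM in more anxious mice. The group means went from 87.5 ± 7.44 (SD, n = 3) through 92.3 ± 8.16 (n = 4) to 96.7 ± 4.51 CPM (n = 4), a difference within the spread of the mice. Sqle, squalene epoxidase, is a rate-limiting step that consumes oxygen. It was at 72.1, 75.8 and 67.4 CPM in less anxious mice, 67.0, 72.1, 71.8 and 73.5 CPM in anxious mice, and 69.9, 77.2, 79.5 and 80.3 CPM in more anxious mice. Mice 6, 9 and 10 were above all others, and mouse 2 of the same group was not.

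Lss, lanosterol synthase, closes the sterol rings. It was at 29.3, 56.7 and 47.7 CPM in less anxious mice, 30.2, 37.3, 51.3 and 44.2 CPM in anxious mice, and 50.2, 57.4, 63.6 and 45.1 CPM in more anxious mice. The low values were those of mice 3 and 1, and the more anxious mice lay from 45.1 CPM upward, on both sides of mouse 7. Cyp51, which demethylates lanosterol, was at 74.8, 74.1 and 59.4 CPM in less anxious mice, 63.9, 55.6, 68.3 and 63.0 CPM in anxious mice, and 60.6, 65.1, 65.6 and 69.1 CPM in more anxious mice. Dhcr7 reduces 7-dehydrocholesterol to cholesterol in the last step. It was at 19.2, 56.1 and 37.6 CPM in less anxious mice, 35.8, 31.2, 39.5 and 31.0 CPM in anxious mice, and 40.8, 46.2, 38.9 and 44.6 CPM in more anxious mice. The lowest and the highest Dhcr7 value of the 11 mice, mice 3 and 7, both belonged to the less anxious group and differed 2.92-fold.

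**Figure D1:**
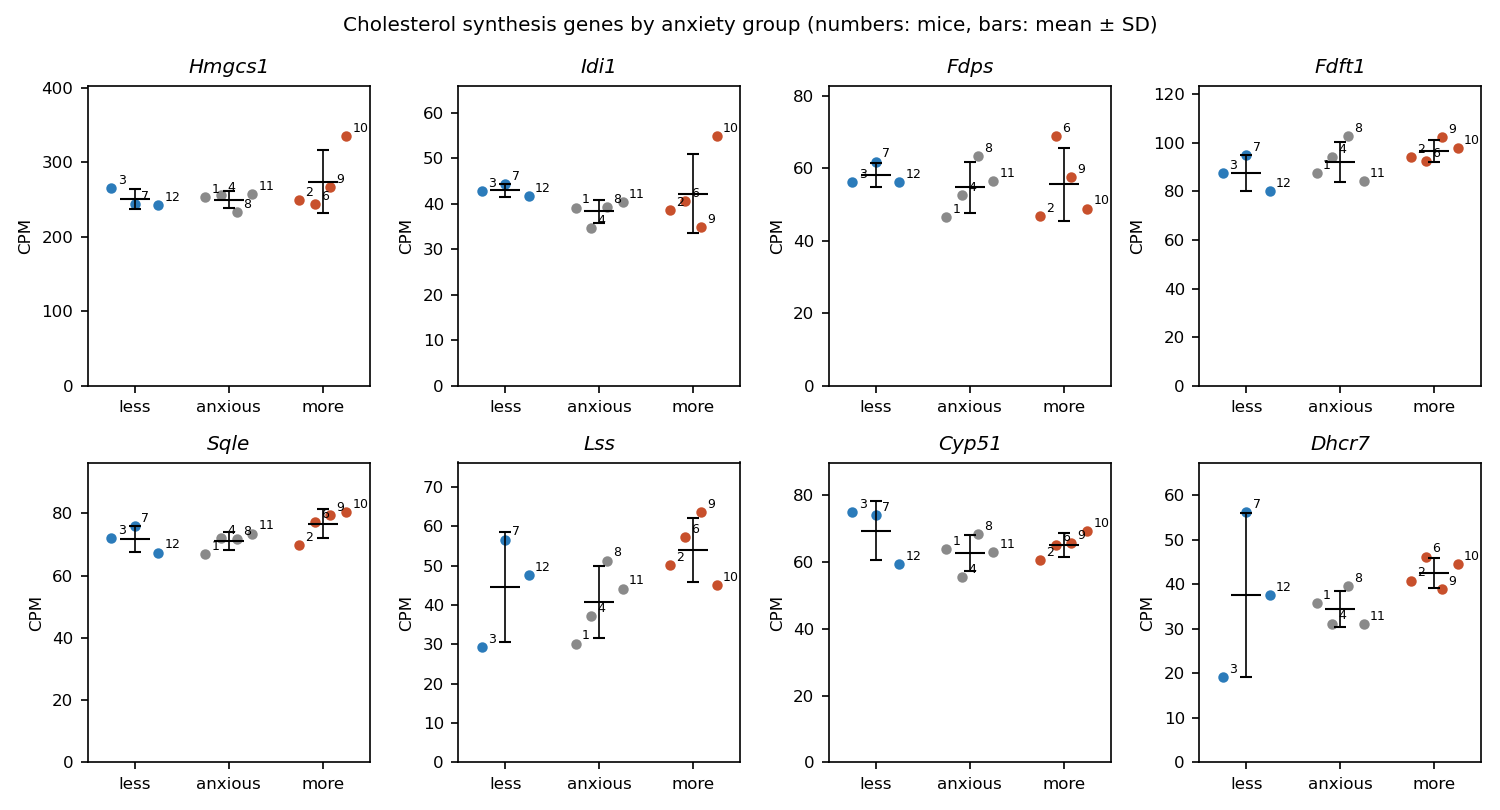
CPM of each member (vertical axis, from 0) in the less anxious, anxious and more anxious mice, with 1 point per mouse labelled by its number and black bars for the group mean ± SD. The ranges of the less and the more anxious mice overlap for all 8 members. The anxious mice lie below the less anxious ones for Idi1, for which no share of all genes was computed. Mouse 10 is highest for Hmgcs1 (336 CPM) and Idi1 (54.8 CPM), and mouse 3 is lowest for Lss (29.3 CPM) and Dhcr7 (19.2 CPM).

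The anxious group had the lowest mean of the 3 groups for 7 of the 8 members, the exception being Fdft1. Among all 15891 genes over 1 CPM, 25.9% had their lowest mean in that group, and among the 13 other enzymes of the pathway 6 did. The highest mean lay in the more anxious group for 5 of the 8 members (Hmgcs1, Fdft1, Sqle, Lss and Dhcr7), against 32.9% of all genes over 1 CPM. These orders were noted after the values were seen and were not tested.

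The comparison of the anxiety groups asked whether any member differed among the 3 states. None was called: 0 of 8 members passed a Benjamini-Hochberg adjusted p of 0.05 in edgeR's quasi-likelihood F-test, 0 passed an unadjusted p of 0.05, and 0 passed DESeq2's likelihood ratio test. The same rules called 0.00742%, 6.35% and 1.01% of all genes tested. No member separated the less from the more anxious mice without overlap, as 10.0% of genes over 1 CPM did. Here and below, p-values of the group test refer to any difference among the 3 groups. Fold changes, SE and intervals refer to more against less anxious mice only. The largest difference was in Lss, with a log2 fold change of more against less anxious mice of 0.25 (SE 0.19, 95% interval -0.17 to 0.66) and an adjusted p of 0.836 in edgeR's test. Dhcr7 differed by 0.16 (-0.27 to 0.59), Hmgcs1 by 0.15 (-0.07 to 0.38), Fdft1 by 0.13 (-0.07 to 0.33) and Sqle by 0.09 (-0.10 to 0.28) on the log2 scale. Idi1 differed by -0.02 (-0.31 to 0.27), Cyp51 by -0.09 (-0.33 to 0.14) and Fdps by -0.11 (-0.38 to 0.15). The median over the members was 0.11, beside 0.0038 over all genes. The intervals leave room for differences of the size of the mouse-to-mouse spread.

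The signs of the Lss and Dhcr7 differences each depended on 1 mouse. Without mouse 3 the Dhcr7 difference was -0.06, and without mouse 9 that of Lss was -0.01. Mice 3 and 9 are those with the lowest and the highest level of GC-rich against GC-poor genes, and Lss and Dhcr7 have exons of 51.9% and 52.3% GC, at percentiles of 58.1 and 60.8 among genes over 1 CPM and below Fdps (63.4) and Fdft1 (70.1). With the smooth GC trend of each mouse removed as an offset, which was chosen after seeing the data, the differences were 0.24 for Lss and 0.15 for Dhcr7. The part of base composition in these differences and their signs was not tested.

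None of the other 13 enzymes of the pathway was called either. Of these, 7 had a positive and 6 a negative log2 fold change, the median was 0.0017, and none passed even an unadjusted p of 0.05. Among them Sc5d had a log2 fold change of 0.01 (unadjusted p = 0.181, adjusted p = 0.904) and Mvk of -0.23 (unadjusted p = 0.317, adjusted p = 0.932) in edgeR's test over the 3 groups. The mean of Sc5d was 31.2 CPM in anxious mice, below 35.2 CPM in less and 35.6 CPM in more anxious mice.

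Around the pathway, 5 of 43 genes in 6 lists (11.6%) had an unadjusted p under 0.05 in edgeR's group test, where 6.35% of all genes tested did, and none passed adjustment. Of the 42 over 1 CPM, 6 (14.3%) did not overlap in level from less to more anxious mice, where 10.0% of all such genes did not. In the list of SREBP regulators, 1 of 7 had such a p: Srebf1, the SREBP that favors fatty acid genes, was lower in every more anxious mouse (44.3, 48.0, 47.6 and 40.7 CPM) than in every less anxious mouse (50.9, 66.1 and 49.0 CPM), with a log2 fold change of -0.30 (SE 0.13, adjusted p = 0.607). Its mean was lowest in the anxious mice (39.9 CPM, beside 55.3 in less and 45.1 in more anxious mice). Srebf2, which drives the sterol branch, differed by 0.04 (SE 0.12, adjusted p = 0.967) in edgeR's group test. Insig1 (0.10, adjusted p = 0.814 in edgeR's test) and Srebf2 were the next in order of p.

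In the list of sterol esterification and oxidation, 2 of 6 genes had an unadjusted p under 0.05, beside the same 6.35% of all genes. Soat1, which esterifies cholesterol for storage, was at 31.5, 61.9 and 39.6 CPM in less anxious mice and 22.5, 35.9, 26.7 and 29.1 CPM in more anxious mice, with a log2 fold change of -0.69 (SE 0.16, adjusted p = 0.508 in edgeR's test, 0.0593 in DESeq2's). Cyp46a1, the neuronal enzyme that turns cholesterol into 24-hydroxycholesterol for export, was at 200.1, 233 and 208 CPM in less anxious mice and 252, 251, 294 and 257 CPM in more anxious mice, without overlap (as for 10.0% of genes over 1 CPM), with a log2 fold change of 0.30 (SE 0.09, adjusted p = 0.674 in edgeR's test). In anxious mice the means of Soat1 and Cyp46a1 were 35.6 and 232 CPM, between those of the other groups. Hsd3b7, a bile acid enzyme, was low, at 5.70, 5.75 and 10.6 CPM in less and 1.73, 4.52, 2.18 and 4.67 CPM in more anxious mice, with an adjusted p of 0.822 in edgeR's test.

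In the list of fatty acid synthesis, 2 of 8 genes had an unadjusted p under 0.05 (6.35% of all genes), the desaturases Scd1 (log2 fold change -0.43, SE 0.13, adjusted p = 0.553) and Scd2 (-0.33, SE 0.11, adjusted p = 0.674) in edgeR's test. Scd1 was at 165, 171 and 163 CPM in less anxious mice and 122, 123, 113 and 128 CPM in more anxious mice, also without overlap (10.0% of genes over 1 CPM), and Acly came next in p with 0.20 (adjusted p = 0.854 in edgeR's test). Scd1 and Scd2 had means of 124 and 1009 CPM in anxious mice, again between those of the other groups. No gene passed an unadjusted p of 0.05 among 11 of uptake and trafficking, 6 of efflux and its LXR regulators, and 5 of the nonsterol branch. The leading genes there were Vldlr (-0.24), Npc1 (-0.16) and Scarb1 (-0.19) for uptake, Nr1h2 (0.17), Abca1 (-0.12) and Nr1h3 (-0.29) for efflux, and Nus1 (-0.15), Pdss1 (0.11) and Dhdds (0.11) for the nonsterol branch, each as a log2 fold change. In the same comparison all 7 astrocyte and all 7 oligodendrocyte markers had negative log2 fold changes, with summed levels of 3563 to 4267 CPM in less and 3042 to 3510 CPM in more anxious mice for astrocytes, and 2750 to 3519 against 2185 to 2976 CPM for oligodendrocytes. The markers of microglia (5 of 5), endothelial cells (4 of 4) and striatum (5 of 5) were likewise all negative, and endothelial markers summed to 91.0 to 134 CPM in less and 61.1 to 82.5 CPM in more anxious mice. Of 8 neuron markers 5 were positive and 3 negative, with a median of 0.14. The positive ones were Slc17a7 (0.44), Snap25 (0.31), Rbfox3 (0.30), Tubb3 (0.24) and Syt1 (0.03). The negative ones were Gad2 (-0.32), Map2 (-0.27) and Gad1 (-0.10). The part of these cell types in the values of Srebf1, Soat1, Cyp46a1, Scd1 and Scd2 was not tested.

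**Figure D2:**
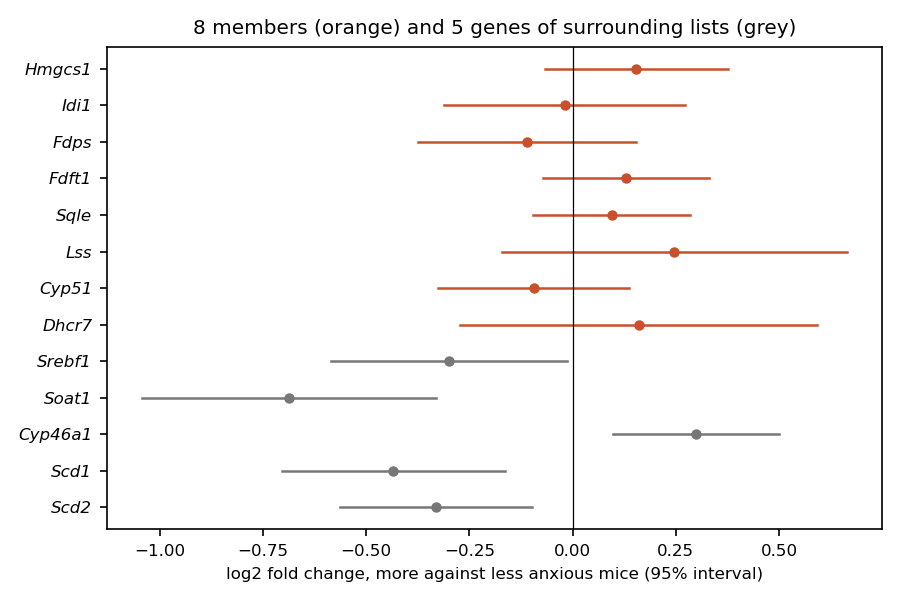
Log2 fold change of more against less anxious mice (horizontal axis) with its 95% interval for the 8 members in orange and, in grey, the 5 genes of the surrounding lists with an unadjusted p under 0.05. Every interval of a member crosses 0, from Lss at 0.25 to Fdps at -0.11. Those of Srebf1, Soat1, Cyp46a1, Scd1 and Scd2 do not, but these genes were picked by their p in the same fit. They are therefore no comparison for the members, and none of the 13 genes passed adjustment.

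The members were then set against 7 behavior measures, each as a standardized number in a model of its own. These were the percentage of time in the open arms and the number of arm entries in the elevated plus maze, the percentages of time and of distance in the light side of a light/dark box, and the ratio of time in the box to time in the zone near a stranger mouse over 3, 5 and 10 min. Of 56 combinations of member and measure, none passed a Benjamini-Hochberg adjusted p of 0.05 in edgeR's fits across all genes, and 5 had an unadjusted p under 0.05. At the adjusted threshold, 0% of all genes passed for open arm time, entries and distance in light, 0.00742% for time in light, and 0.0150%, 0.0111% and 0.0223% for the ratio at 3, 5 and 10 min. At the unadjusted threshold the shares were 5.84% for open arm time, 6.97% for entries, 3.55% for time in light, 5.80% for distance in light, and 7.65%, 6.56% and 8.05% for the ratio at 3, 5 and 10 min.

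Fdps was the member with the smallest p. Its slope on time in the open arms was 0.13 on the log2 scale per SD (SE 0.04, unadjusted p = 0.00794, adjusted p = 0.683 in edgeR's test, 11 mice) and that on total entries was 0.12 per SD (SE 0.05, unadjusted p = 0.0206, adjusted p = 0.635). Mice 2, 10 and 1, which spent 2.33%, 3.25% and 6.73% of the time in the open arms, had the lowest Fdps levels, 46.8, 48.9 and 46.5 CPM. Mouse 6, with 29.2% of the time there, had the highest at 68.9 CPM. Though labelled more anxious, mouse 6 spent the most time of all mice in the open arms and in the light (46.6%). Mouse 9 went against this order, with 4.30% of the time and 57.6 CPM. The slope on open arm time stayed between 0.10 and 0.16 as each mouse was left out, and without mouse 6 its unadjusted p was 0.0512 in edgeR's test. The slope on entries had an unadjusted p of 0.0654, 0.0869 and 0.0621 without mouse 1, 2 or 6.

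Cyp51 had positive slopes on the box zone ratio at 5 min (0.08 per SD, SE 0.04, unadjusted p = 0.0491, adjusted p = 0.757) and at 10 min (0.09, SE 0.04, unadjusted p = 0.0430, adjusted p = 0.609) in edgeR's test. Both had an unadjusted p of 0.169 without mouse 3, which had the highest ratios. The p at 5 min stayed under 0.05 only without mouse 7 or 9, and at 10 min only without mouse 6, 7, 9 or 11. With the GC offset the unadjusted p values were 0.0805 and 0.100, and with mouse 5 included 0.305 and 0.276, in edgeR's test. Dhcr7 had a negative slope on the ratio at 10 min (-0.26 per SD, SE 0.10, unadjusted p = 0.0180, adjusted p = 0.533). This rested on mouse 3, which had a ratio of 2.62 and 19.2 CPM of Dhcr7, while the other 10 mice had ratios of 0.495 to 1.58 and 31.0 to 56.1 CPM. Without it the slope was -0.03 (unadjusted p = 0.750), and with ranks of the ratio in place of values it was -0.13 (unadjusted p = 0.273) in edgeR's test. It was -0.25 with the GC offset (unadjusted p = 0.0163), -0.17 with the first principal component of expression as a covariate, as in the group test (unadjusted p = 0.0980) and -0.20 with mouse 5 included (unadjusted p = 0.227) in edgeR's test. Hmgcs1, Idi1, Fdft1, Sqle and Lss had no unadjusted p under 0.05 for any of the 7 measures.

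**Figure D3:**
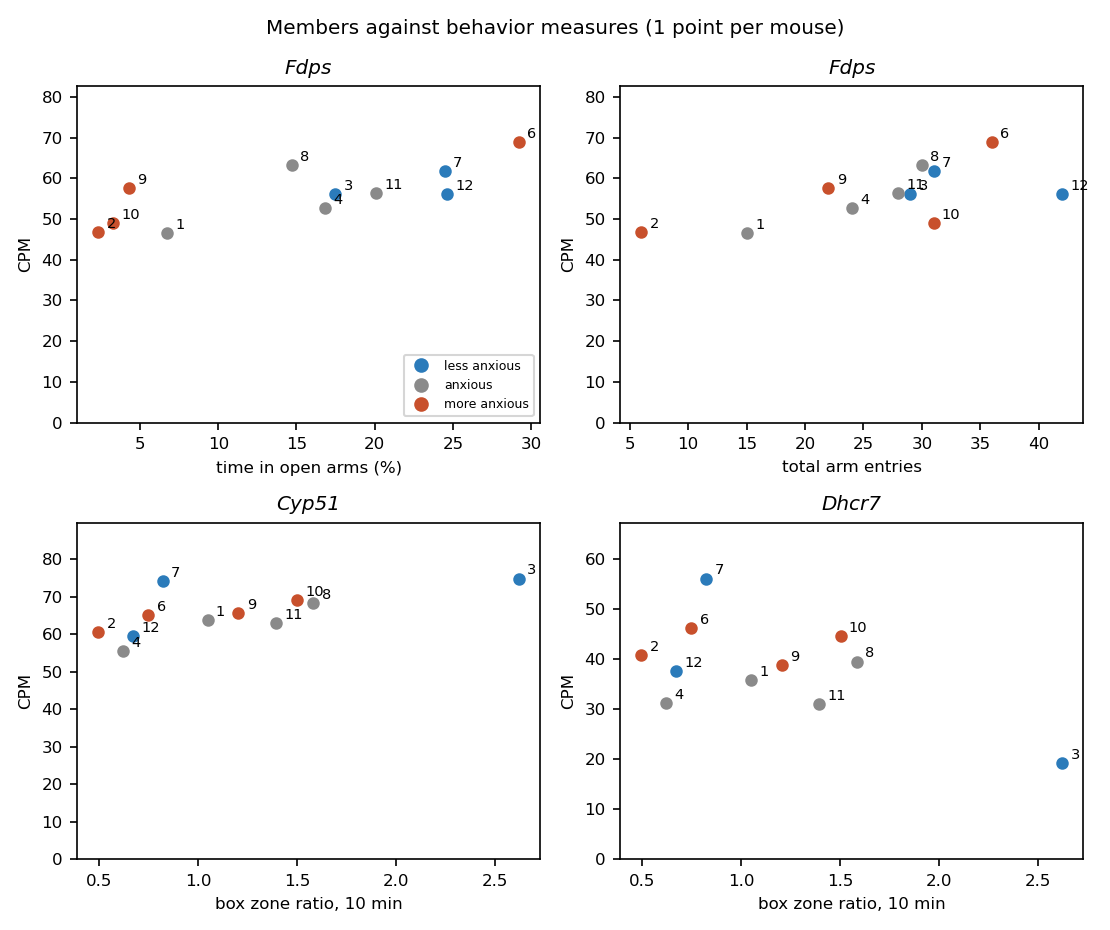
CPM (vertical axis, from 0) of Fdps against time in the open arms in percent and against total arm entries, and of Cyp51 and Dhcr7 against the box zone ratio over 10 min, with 1 point per mouse colored by group. Fdps runs from 46.5 CPM in mouse 1 to 68.9 CPM in mouse 6, and mouse 3 lies far to the right in the panels of Cyp51 and Dhcr7, at a ratio of 2.62.

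Over the 11 mice the members tended to vary together, though not as 1 block. Of the 28 pairs, 22 had a positive Pearson r of log2 CPM, and the median was 0.284, against 0.0014 over all pairs of genes over 1 CPM. All values share the same 11 libraries and are given as a description. The highest r was between Lss and Dhcr7 (0.737, Spearman's rho 0.746). It was 0.567 without mouse 3, 0.628 without mice 3 and 1 (the mice farthest from the median of Lss), and 0.712 after a smooth GC trend of each mouse was subtracted. Fdft1 and Sqle, successive steps, had an r of 0.603.

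Hmgcs1 and Idi1 had the next highest r, 0.643, but a rho of 0.0182, and without mouse 10 the r was -0.321, so this pair rested on that mouse. The lowest r was between Hmgcs1 and Fdps (-0.449). The early genes Hmgcs1 and Idi1 had r values of -0.156 and -0.0608 with Lss. As a mean z-score over the 8 members, mouse 10 was highest (0.960), followed by mouse 7 (0.715), a less anxious mouse, and mouse 1 was lowest (-0.749), with none of its 8 members above the median. The 3 groups overlapped on this score.

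**Figure D4:**
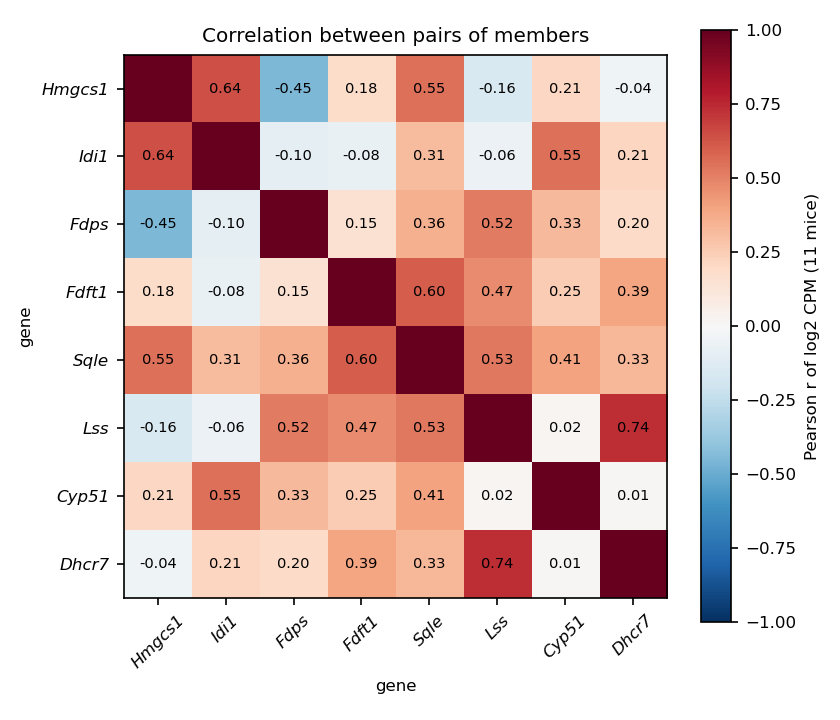
Pearson r of log2 CPM over 11 mice for each pair of members, from -1 (blue) to 1 (red). Lss and Dhcr7 have the highest value (0.74) and Hmgcs1 and Fdps the lowest (-0.45).

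The same mean z-score was compared with every other gene over 1 CPM (15883 genes). All 13 other enzymes of cholesterol synthesis had a positive r with it, with a median of 0.519, and 9 of them were above the 90th percentile of all genes. Mvd, which makes isopentenyl diphosphate, had an r of 0.788 and Sc5d 0.689. Insig1 had an r of 0.793, at a percentile of 99.78. Srebf2 had an r of 0.650 and Srebf1 0.283. As each mouse was left out, the percentile stayed at or above 96.62 for Insig1 and 97.66 for Mvd, both lowest without mouse 10. After the GC trend was subtracted, 11 of the 13 enzymes had a positive r and 7 were above the 90th percentile, with Insig1 at an r of 0.852 and Mvd at 0.721. Srebf2 was then at 0.439, at a percentile of 88.77.

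Lists beside the sterol branch had lower medians. The median r was 0.0226 for 8 genes of fatty acid synthesis, -0.0659 for 5 of the nonsterol branch, 0.195 for 6 of efflux and 0.279 for 11 of uptake and trafficking. Whether these lists differ from the sterol enzymes was not tested. Marker lists had r values with the members' score of 0.298 for neurons, 0.110 for oligodendrocytes, -0.145 for astrocytes, 0.0091 for microglia and for endothelial cells, -0.0405 for oligodendrocyte precursors, -0.0863 for choroid plexus, 0.232 for striatum, -0.374 for amygdala nuclei and -0.567 for pituitary genes, taken over the mean z-score of each list's genes over 1 CPM. The 4 pituitary genes (Prl, Gh, Pomc and Cga) summed to at most 3.68 CPM in less, 56.7 CPM in anxious and 1.63 CPM in more anxious mice, and their part in the members' levels was not tested. By the rule for likeness, the closest genes reported were Dis3l2 (r = 0.877), Nrn1 (0.868), Sec14l1 (0.865), Daglb (0.865), Plxnd1 (0.864), Arpc1b (0.864), Rdh1 (0.852), Gm28800 (0.846) and Dpp3 (0.843).

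**Figure D5:**
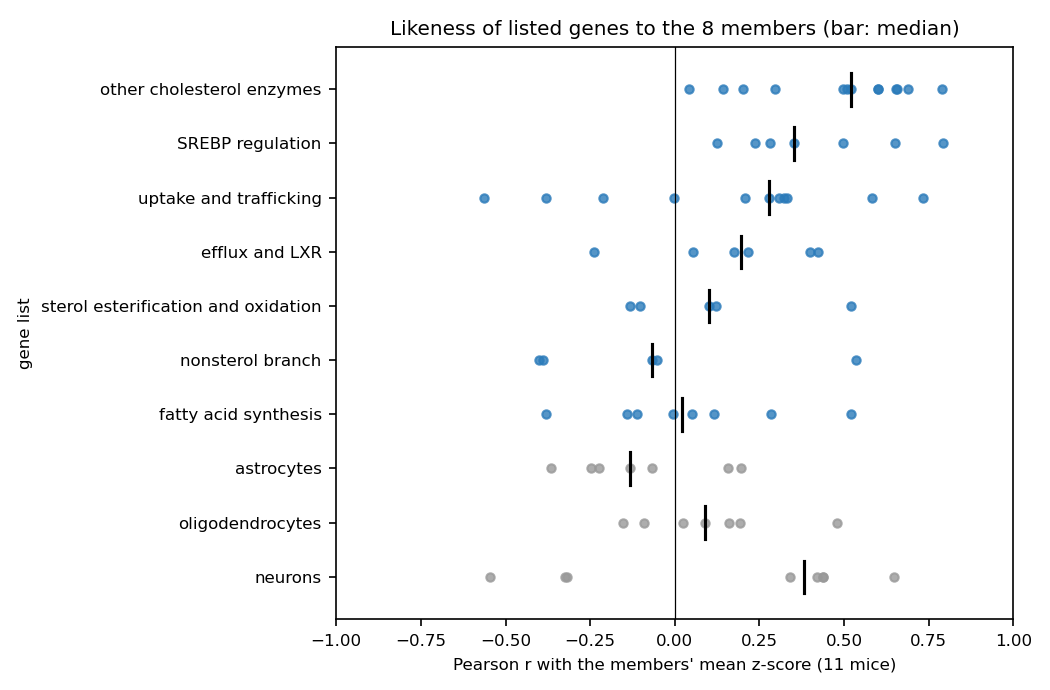
Pearson r over 11 mice between log2 CPM of each listed gene and the mean z-score of the 8 members, with 1 point per gene and a black bar for each list's median, pathway lists in blue and cell type markers in grey. The other cholesterol enzymes lie furthest to the right of the pathway lists, with a median of 0.519, and the list of fatty acid synthesis is centered near 0, at 0.0226.

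Some members share exon bases with other genes, and whether the counting used strand is not stated. Fdft1 shares 774 exon bases with Ctsb on the opposite strand, a gene with 206581 reads over the 12 mice, and Cyp51 shares 166 with Akap9 on the opposite strand. Fdps shares 1124 bases with Gm43738 on the same strand, which took 86 reads in all. Lss shares 381 bases with the antisense gene 4930483K19Rik (57 reads), and Hmgcs1 and Idi1 overlap Gm48342 and Gm48574 on the opposite strand, whose reads were not used here. The levels of Fdft1 and Cyp51 are the less certain for this.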

How the data were processed

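Amygdala mRNA of 12 mice was sequenced in a single run, 1 library per mouse. The authors estimated transcript abundance with Salmon, aligned reads to mm10 for quality checks, and summed estimates to genes with tximport. The authors deposited estimated counts without normalization, and 0 values were not whole. CASAVA and DESeq2 are also named in the submitters' processing notes. Versions, annotation release and use of strand are not given in the sources used here. GENCODE M21 matched 99.1% of the genes. Columns of no sample numbered 0.

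Groups and behavior came from the labels. Mouse 5, which has no group and which the study removed as an outlier in expression, was left out of all fits unless stated. With R 4.3.3 and edgeR 4.0.16, genes with at least 10 reads in total (26963) were fitted with TMM factors and robust quasi-likelihood F-tests. The group test used 2 degrees of freedom with the PC1 score of variance-stabilized counts (DESeq2 1.42.0) as a covariate, as in the study's methods, and the behavior tests used no covariate. P-values were adjusted by Benjamini-Hochberg over all genes tested. CPM used TMM factors and log2 CPM a prior count of 2. With 691 or more reads per member and mouse, the number of mice more than the depth limits the precision.

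The members and lists were chosen with earlier results of these data known. The genes to be named were the 8 members, up to 3 genes with the smallest p in each of 7 other lists with any that passed, and the 10 genes most like the members' mean z-score. Sterol genes in the account of likeness (Mvd, Sc5d and Insig1 among them) were named after their values were seen. Some results under this rule are not reported here. The fits were tested on simulated data. Alternatives covered size factors, count filters, DESeq2's test, spread without robust estimates, covariates, groups as a linear term, ranks, transforms, mouse 5, each mouse left out, and a GC offset.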

Additional observations from a re-analysis of the deposited data

How the results depend on the processing

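Under all alternatives run, no member passed an adjusted p of 0.05 for the groups or for a behavior measure. Across the groups, the number of members with an unadjusted p under 0.05 was 0, and from 0 to 2 as each mouse was left out (2 without mouse 3, 1 without mouse 11). Of all genes, 1969 had such a p in edgeR's test without mouse 3 and 1579 without mouse 11, beside 1712 with all 11 mice. The number whose less and more anxious values were separate was 0 with all mice and from 0 to 2 as each mouse was left out (2 without mouse 7, 1 without mice 2, 3, 10 or 12). Fewer mice separate more easily, and the share of all genes that did so was not computed for these subsets. The log2 fold change of Idi1 (-0.02) turned to 0.0577 with a GC offset, which was chosen after seeing the data, and ran from -0.19 to 0.10 as each mouse was left out. That of Dhcr7 ran from -0.0585 (without mouse 3) to 0.37 and that of Lss from -0.0128 (without mouse 9) to 0.35. The count of 5 member and measure combinations became 3 without a count filter and 2 with mouse 5 included. It was 7 with DESeq2's likelihood ratio test, and 4 with ranks of the measures or with the GC offset. As each mouse was left out it ran from 2 to 7 (2 without mice 1, 2 or 3). The cause was not tested. The median r of the pairs was 0.220 with mouse 5 included, 0.385 with the GC offset, and from 0.226 (without mouse 1) to 0.407 (without mouse 3) as each mouse was left out. Over all genes, 2 were called across the groups, against 9 without a count filter, 0 with filterByExpr or without the PC1 covariate, 22 with the groups as a linear term and 186 with DESeq2. No paired analysis was possible because the labels carry no replicate numbers that tie mice of different groups together. With 3 or 4 mice per group, small differences in the members could not be resolved.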

Other observations

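Mouse 5 has no group in the labels, and the study removed it as an outlier by principal component analysis. This mouse had the lowest level of the 12 mice for Fdps (44.8 CPM), Lss (22.5 CPM) and Dhcr7 (13.9 CPM) and the highest for Cyp51 (87.6 CPM), with TMM factors of all 12 mice. Its Hmgcs1 (272 CPM), Idi1 (42.0 CPM), Fdft1 (92.1 CPM) and Sqle (74.1 CPM) lay inside the range of the other mice. Mouse 5 had 23768 genes with a read, and its GC-rich genes were lower than its GC-poor genes by a median deviation of -0.40 on the log2 scale, beside -0.32 in mouse 3. Mouse 3 was the next lowest for Lss and Dhcr7 and the next highest for Cyp51. The part of base composition in these levels was not tested.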
